A study of Mus musculus with 2 samples.

Results

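Collagen genes encode the chains of the most abundant proteins of the extracellular matrix, and their promoters were examined for Ring1B in mouse embryonic stem (ES) cells. Members were all genes whose name in the array annotation is Col, a number, the letter a and a number, alone or as one side of a hyphen-joined name, with at least 3 probes. This gave 35 of the 16883 genes measured, 20 on slide 1 and 15 on slide 2. They carried 1139 probes, from 15 to 45 per gene with a median of 34, so that none lay near the minimum of 3. Of 44 collagen genes with such a symbol in RefSeq, the other 9 (Col20a1, Col22a1, Col26a1, Col28a1, Col6a3, Col6a4, Col6a5, Col6a6 and Col8a1) were not analysed here.

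Ring1B (gene symbol Rnf2), a protein of the Polycomb group, was mapped by ChIP-chip, in which chromatin is recovered with an antibody and its DNA is hybridised to a tiling array beside input DNA. Formaldehyde-fixed ES cells were immunoprecipitated with a monoclonal antibody against Ring1B, and both DNAs were amplified by linker-mediated PCR, per the labels. Immunoprecipitated (IP) DNA carried Cy5 and input DNA carried Cy3 on both slides, and neither a dye swap nor a mock immunoprecipitation was among the arrays. The 2 arrays are the slides of 1 promoter set and share no probe, so each promoter was measured once, on 1 array. There were no replicates, and no p-value was computed. The labels name no cell line, strain, genotype or treatment, and their source names begin with the word Muscle while the titles name ES cells. DNA ratios cannot check the cell type. Values are log2 ratios of IP over input signal, with each slide's median probe set to 0. The mean of all probes of a gene is its value, and the SD given beside it is the spread over those probes, not an error between samples. Signal stood well above background at 78.3% of collagen probes for input and 82.1% for IP. At 15.0% of them both channels held the scanner software's floor value, which leaves the ratio near 0 whatever the DNA amounts. No collagen probe was saturated.

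Collagens assemble from alpha chains wound into a rope-like helix. Fibrillar collagens build the cables of bone, skin, tendon and cartilage, collagen IV forms the sheet of basement membranes, and the FACIT collagens (fibril-associated collagens with interrupted helices) coat fibrils. The collagen IV genes lie in head-to-head pairs, each pair transcribed in opposite directions from a shared promoter region. Ring1B is the catalytic subunit of Polycomb repressive complex 1, which places ubiquitin on histone H2A and is known in ES cells for holding developmental genes silent, mostly at CpG-rich promoters.

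The array probes that carried the most extreme values of the genes with the highest and lowest ratios are shown first, with every CpG in capitals and all other bases in lower case. Their coordinates are those of the array files, and the sources used here do not state the genome build. The Col4a1/Col4a2 promoter region is represented by the probe annotated to both genes (chr8:11280888-11280932) and by the highest probe of each gene, chr8:11280209-11280253 for Col4a1 and chr8:11281273-11281321 for Col4a2. The highest probes of Col12a1 (chr9:79797196-79797250), Col14a1 (chr15:55370315-55370370) and Col2a1 (chr15:98005410-98005456) follow, and then the lowest probe of Col4a4 (chr1:82790486-82790545). The annotation places those of Col4a1, Col4a2, Col14a1, Col2a1 and Col4a4 inside the gene and that of Col12a1 in the promoter. It does not separate exons from introns.
Col4a1-Col4a2 shared probe: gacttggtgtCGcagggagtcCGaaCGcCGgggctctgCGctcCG
Col4a1 probe: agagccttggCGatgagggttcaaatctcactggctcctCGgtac
Col4a2 probe: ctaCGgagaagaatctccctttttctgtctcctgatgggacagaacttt
Col12a1 probe: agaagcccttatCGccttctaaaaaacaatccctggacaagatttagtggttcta
Col14a1 probe: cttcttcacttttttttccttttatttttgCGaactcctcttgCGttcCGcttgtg
Col2a1 probe: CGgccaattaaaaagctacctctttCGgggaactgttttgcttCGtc
Col4a4 probe: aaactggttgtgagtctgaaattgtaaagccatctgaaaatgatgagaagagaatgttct
The shared probe held 6 CpG in 45 bases and read 0.56, from an input signal of 1810 and an IP signal of 3124. The Col4a1 probe, with 2 CpG, read 2.52, and the Col4a2 probe, with 1 CpG, read 4.21, where input was 322 and IP 6975. The Col12a1 probe held 1 CpG and read 3.65, the Col14a1 probe 3 CpG and 3.25, and the Col2a1 probe 3 CpG and 4.36. Their input signals were 98.5, 881 and 85.4, and their IP signals 1385, 9378 and 1963, so the highest value printed rests on a low input signal. The Col4a4 probe had no CpG and read -4.28, with an input signal of 2717 against an IP signal of 164. These probes were picked for their ratios or, for the shared one, its annotation, so no relation of CpG number to ratio can be read from them.

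A RefSeq promoter was found for 28 of the 35 genes. Of these, 4 are printed because probes inside them went to opposite sides: Col1a2 and Col4a5, whose probes there were high, and Col3a1 and Col10a1, whose probes there were near or below 0. Each is the 250 bases before the transcription start on the strand of the gene, from RefSeq on GRCm38.p6, with CpG in capitals. The positions are chr6:4505368-4505617 for Col1a2, chrX:141475169-141475418 for Col4a5, chr1:45311288-45311537 for Col3a1 and chr10:34389731-34389980 for Col10a1, all on the plus strand.
Col1a2: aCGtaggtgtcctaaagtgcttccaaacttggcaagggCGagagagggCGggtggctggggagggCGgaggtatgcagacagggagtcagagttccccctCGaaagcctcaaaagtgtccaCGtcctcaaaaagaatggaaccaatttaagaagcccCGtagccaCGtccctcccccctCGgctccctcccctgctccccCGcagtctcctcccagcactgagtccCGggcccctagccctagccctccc
Col4a5: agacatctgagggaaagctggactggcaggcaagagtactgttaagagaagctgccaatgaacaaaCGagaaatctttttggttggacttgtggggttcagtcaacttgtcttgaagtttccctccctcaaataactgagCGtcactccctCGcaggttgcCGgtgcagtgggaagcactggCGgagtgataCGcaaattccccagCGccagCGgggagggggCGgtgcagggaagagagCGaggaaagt
Col3a1: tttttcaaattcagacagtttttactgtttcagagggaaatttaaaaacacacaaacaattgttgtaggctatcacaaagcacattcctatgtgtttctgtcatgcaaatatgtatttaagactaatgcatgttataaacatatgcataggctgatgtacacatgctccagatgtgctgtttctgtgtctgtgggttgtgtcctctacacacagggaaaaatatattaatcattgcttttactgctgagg
Col10a1: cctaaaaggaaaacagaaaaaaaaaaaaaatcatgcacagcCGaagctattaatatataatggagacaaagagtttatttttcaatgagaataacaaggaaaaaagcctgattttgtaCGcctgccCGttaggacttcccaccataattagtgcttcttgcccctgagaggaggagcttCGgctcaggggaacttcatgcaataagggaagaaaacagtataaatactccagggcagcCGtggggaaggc
These stretches hold 11, 10, 0 and 5 CpG. The 4 promoters were picked for their probe values, so no relation of CpG number to ratio can be read from them. The Col1a2 probe spanning -148 to -96 read 2.24. In Col4a5 the probe spanning -155 to -106 read 1.70 and the one spanning -17 to 34 read 2.63. In Col3a1 the probe spanning -207 to -148 was at the floor in both channels, and the one spanning -56 to 3 read -1.27. In Col10a1 the probes spanning -188 to -129 and -61 to -9 read -2.43 and -1.42.

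The comparison of IP with input DNA asks which promoters carried Ring1B in these cells. Averaged over whole tiled regions, most collagen genes lay near the median probe: the median of the 35 means was -0.08, against -0.10 for all 16883 genes. Means above 0 were found for 16 of 35 (45.7%), beside 39.6% of all genes. Col4a2 (1.23 ± 1.19, SD over 29 probes), a chain of the ubiquitous collagen IV network, and Col12a1 (1.11 ± 1.61, 40 probes), a FACIT collagen of dense connective tissue, had means of at least 1. Together these 2 of 35 make 5.71% (exact 95% interval 0.700 to 19.2%, counting error only), beside 2.06% of all genes. Col4a4 (-1.02 ± 1.65, 20 probes), a chain of the kidney filter's collagen IV, was the single gene at or below -1, 2.86% (0.0723 to 14.9%) beside 1.94% of all genes. By the median of its probes Col4a2 stood just under 1 (0.995), with Col14a1 in its place. With loess Col4a4 stood at -0.97, and Col10a1 was the single gene at or below -1. At 0.5 in size, 4 collagen genes were high and 6 low, beside 7.86% and 15.7% of all genes. The interval of the share at or above 1 includes the background share. Intervals were computed only for the counts at 1 and -1, and they treat genes as independent. No collagen mean reached 1.5 in size, beside 0.675% of all genes at or above 1.5. Among genes with at least 20 probes, 2 collagens reached 1 and 1 reached -1, beside 2.18% and 1.16% of all such genes. Without probes of dim input these counts were 3 and 3, beside 2.37% and 7.57%.

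**Figure D1:**
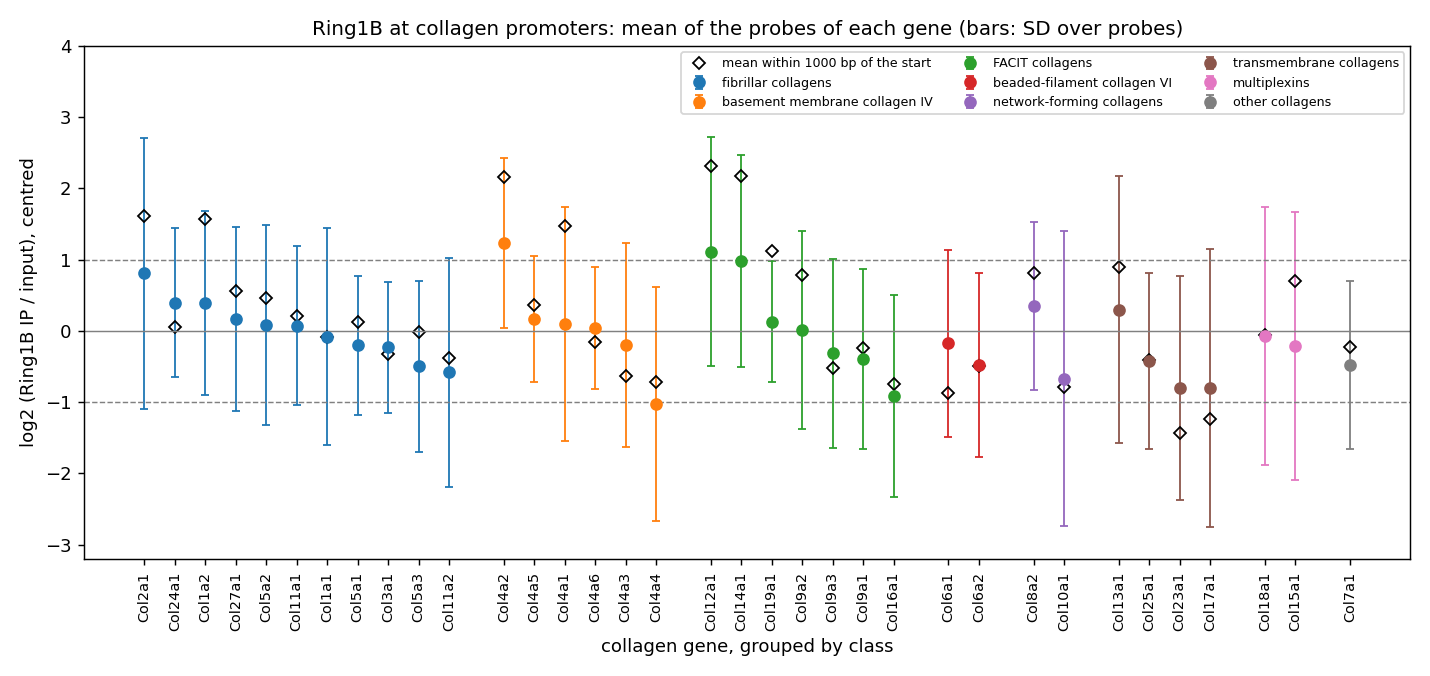
Mean log2 ratio of IP over input, centred on the slide median, for each of the 35 collagen genes (filled points, coloured by class), with bars for the SD over the gene's probes. Open diamonds are means of the probes within 1000 bp of the start, and dashed lines mark 1 and -1. Col4a2 and Col12a1 are the filled points above 1, while 7 diamonds lie above 1, and the bars of all genes but Col4a2 cross 0.

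Close to the transcription start the high genes stood further out. Over probes within 1000 bp, 7 of 35 collagen genes had a mean of at least 1, beside 8.13% of the 15749 genes with a value there. They were Col12a1 (2.32), Col14a1 (2.17), Col4a2 (2.16), Col2a1 (1.61), Col1a2 (1.57), Col4a1 (1.47) and Col19a1 (1.12). Neighbouring Col4a1 and Col4a2 share 1 region. The value of Col19a1 rests on 6 probes, all upstream of the start and 2 of them at the floor in both channels. Col23a1 (-1.43) and Col17a1 (-1.24), both transmembrane collagens, were at or below -1, beside 6.67% of all genes. Within 500 bp the 178 collagen probes averaged 0.27, against 0.06 over all genes. The share of floor probes there was 4.49% for collagens and 6.70% for all genes. More than 2000 bp upstream the collagen mean was -0.18 against -0.16, and more than 2000 bp inside genes it was -0.25 against -0.22. From 2000 to 500 bp upstream it was 0.10 against -0.01, and from 500 to 2000 bp inside genes it was -0.09 against 0.00.

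Runs of neighbouring probes show where within a promoter the high values lay. A run here is at least 3 probes whose running mean over 500 bp on either side was at least 1 in size. A high run of at least 1000 bp was present in 8 of 35 collagen genes (22.9%), beside 7.82% of all genes, or 24.2% beside 9.43% among genes with at least 20 probes. The 8 genes were Col12a1, Col2a1, Col14a1, Col1a2, Col24a1, Col4a2, Col13a1 and Col4a1, and neighbouring Col4a1 and Col4a2 share 1 region. High runs of at least 2000 bp were found in 3 genes (8.57%), beside 2.75% of all genes. Low runs of at least 1000 bp were present in 3 genes, Col23a1, Col2a1 and Col13a1 (8.57%), beside 9.35%, and none reached 2000 bp, beside 0.764%. The share of collagen genes with a low run was thus near the background share, and the share with a high run was above it. In the lists of related genes given below, the shares with a high run were above the background share too. The number of collagen genes with a high run was 8 or 9 under each alternative scaling and probe filter listed under the processing. Over all genes these settings gave shares from 6.72 to 11.7%. Of the 8 genes, 7 held a high run under each of these settings. With loess, Col24a1 lost its run and Col8a2 gained one, and the count stayed at 8. The low runs of collagen genes numbered 0 with normexp background correction or the series table, where 3.07% and 3.08% of all genes held one. With loess those of Col23a1 and Col13a1 were lost and Col17a1 gained one, and without dim or floor probes that of Col2a1 was lost.

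The collagen IV genes form 3 head-to-head pairs, and 1 of the pairs carried the widest high region of the class. Between Col4a1 and Col4a2 (chr8:11275657-11285827 as tiled), the starts lay 293 bp apart in the array annotation and -21 bp, an overlap, in RefSeq. The 11 probes within 1000 bp of their midpoint ran from 0.56 through a median of 1.61 to 4.21, all above 0, with a mean of 1.99 ± 1.09 (SD over probes), 3.97-fold over the slide median. A high run of 17 probes covered 2909 bp, from -1370 to 1538 bp of the midpoint, with a mean of 1.90. The region was not symmetrical. Within 1000 bp the Col4a1 side averaged 1.65 (5 probes) and the Col4a2 side 2.27 (6 probes), but beyond 2000 bp the Col4a1 side averaged -0.52 (18 probes) and the Col4a2 side 0.94 (17 probes). A second high run of 7 probes, 1022 bp long with a mean of 1.35, lay inside Col4a2 from 2221 to 3242 bp. Thus Col4a1, with a mean of 0.10 ± 1.64 over all its 27 probes, was high at the start and low inside the gene. In Col4a2, 26 of 29 probes were above 0.

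The Col4a4/Col4a3 pair encodes chains of the specialised basement membranes of the kidney, ear and lung, together with Col4a5. It lies on chromosome 1, with starts 183 bp apart, and had no high run. Its 12 probes within 1000 bp of the midpoint ran from -3.71 through a median of 0.04 to 1.57, with 6 above 0 and a mean of -0.81 ± 1.84. Within 500 bp of its own start, however, Col4a4 averaged 0.34 (5 probes) and Col4a3 0.50 (4 probes). From 500 to 2000 bp inside the gene they averaged -1.33 (6 probes) and -1.19 (7 probes). Col4a4 had probes from -4.28 to 0.89 with a median of 0.01 and 7 of 20 probes below -1. Col4a3 averaged -0.20 ± 1.43 over 36 probes, some of them a separate group more than 20 kb inside the gene, and -0.25 without that group.

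The X-linked pair Col4a6/Col4a5, whose chains serve smooth muscle, skin and kidney basement membranes, was different on its sides. Their starts lay 1231 bp apart by the probe boundaries, the widest of the collagen IV pairs on the array, and 1343 bp apart in RefSeq. Within 1000 bp of the midpoint the 5 probes on the Col4a6 side averaged -0.66 and the 6 on the Col4a5 side 1.02, with the highest probe, 2.63, across the Col4a5 start at the end of the promoter printed above. Over whole regions, Col4a5 averaged 0.17 ± 0.88 (30 probes) and Col4a6 0.04 ± 0.86 (31 probes). Both carried many floor probes, 9 of 30 in Col4a5 and 17 of 31 in Col4a6. Neither gene held a run as defined above, although 3 neighbouring probes at the Col4a5 start read 1.31, 1.70 and 2.63.

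**Figure D2:**
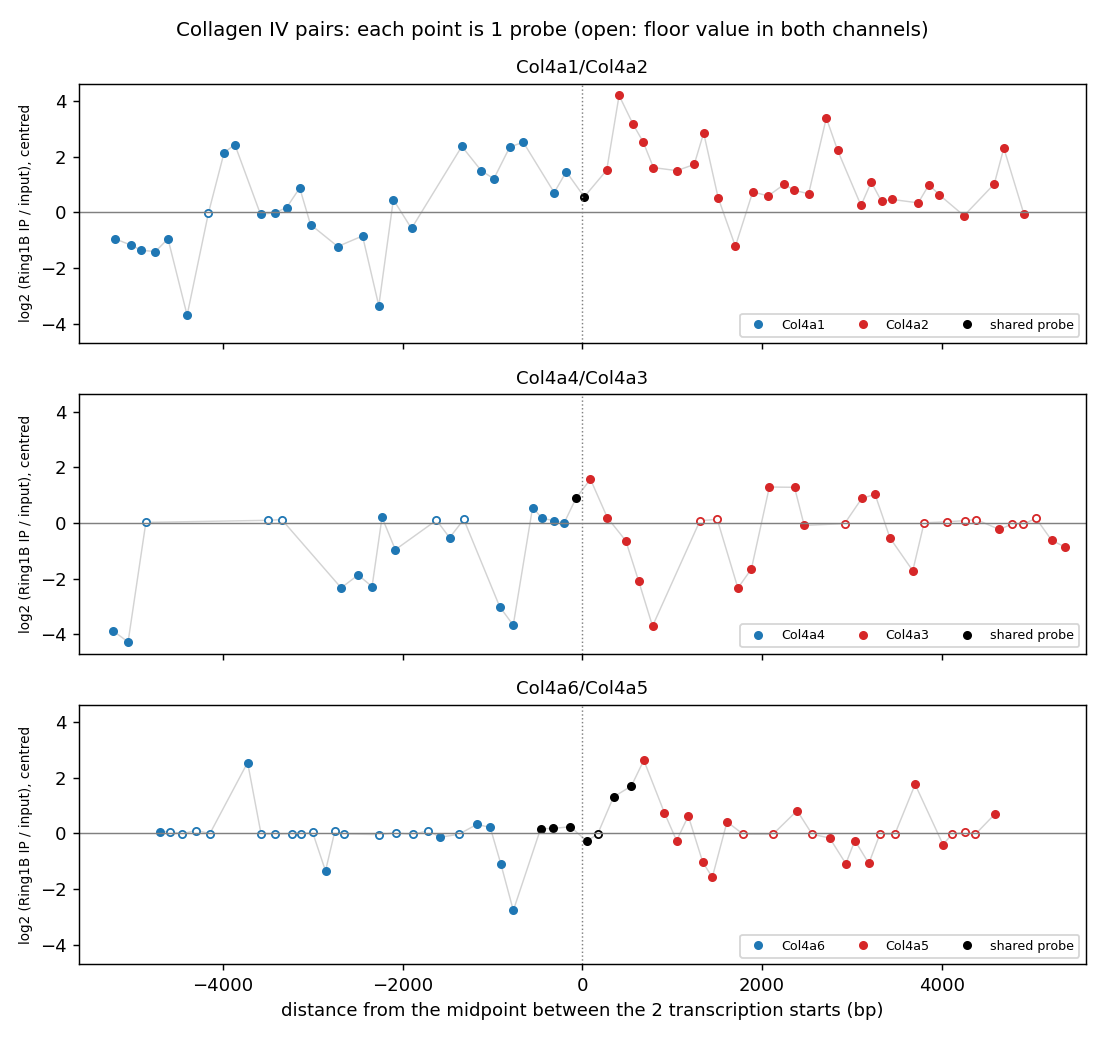
Log2 ratio of IP over input, centred, of each probe (points) against distance in bp from the midpoint between the starts of the collagen IV pairs, with the left gene in blue, the right gene in red, shared probes in black and floor probes open. Points of Col4a1/Col4a2 are all above 0 within 1000 bp of the midpoint (mean 1.99), those of Col4a4/Col4a3 scatter from -3.71 to 1.57, and those of Col4a6/Col4a5 average 1.02 on the Col4a5 side and -0.66 on the Col4a6 side.

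The remaining divergent collagen promoter joined Col5a3, a minor chain of fibrillar collagen V, to Rdh8, a retinol dehydrogenase of photoreceptors. The starts lay 3469 bp apart on the array, so neither was within 1000 bp of the midpoint. The 6 probes in that window averaged -0.40 ± 1.35. Within 1000 bp of its own start Col5a3 averaged -0.01 (4 probes). Taken as groups, the 7 head-to-head genes had a median of 0.04 and the 28 single-promoter genes -0.13, a difference of 0.17. This difference took the opposite sign with normexp background correction (-0.17) and in the series table (-0.19), and lay at -0.02 within 1000 bp of the start. High runs of at least 1000 bp were found in 2 of 7 head-to-head genes, Col4a1 and Col4a2, beside 5.41% of all genes with a hyphen-joined promoter. They were found in 6 of 28 single-promoter genes, beside 8.33% of all other genes. Over all genes, 2974 with a hyphen-joined promoter had a median of -0.15 and 13909 others -0.09. Head-to-head means ran from -1.02 to 1.23 and single-promoter means from -0.91 to 1.11, so that the groups overlapped over nearly their whole range.

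Of the fibrillar collagens, which form the main cables of connective tissue, all 11 were measured, with a median of 0.07. Means above 0 were found for 6 of them (54.55%), beside 39.6% of all genes. None reached a mean of 1, although Col2a1 did with normexp (1.14), loess (1.00) and the series table (1.10), and within 1000 bp of the start (1.61). Col2a1, the main collagen of cartilage, was highest at 0.81 ± 1.90 over 33 probes, which ran from -4.21 through a median of 0.92 to 4.36. Its high run of 18 probes spanned 3136 bp, from -598 to 2537 bp, with a mean of 1.80 (chr15:98005205-98008340). Its 9 probes more than 2000 bp upstream averaged -1.05, and a low run of 6 probes there covered 1134 bp. The gene mean therefore joined a high start and a low upstream stretch.

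The chains of collagen I, the collagen of bone, skin and tendon, differed from each other. Col1a2 probes ran from -2.93 through a median of 0.08 to 2.49, with a mean of 0.39 ± 1.30 over 38 probes. A high run of 10 probes spanned 1815 bp, from -862 to 952 bp, with a mean of 1.57 (chr6:4457784-4459598). Col1a1 probes ran from -2.75 through -0.30 to 3.47, with a mean of -0.08 ± 1.52 over 40 probes. The first Col1a1 probes inside the gene were high, and those on chromosome 11 at 95045379, 95045492 and 95045784 read 3.06, 3.47 and 2.67. Their input signals were 134, 57.4 and 251, so the value of 3.47 rests on an input near that of the floor probe at 95044801 (56.5). The 10 Col1a1 probes from 2000 to 500 bp upstream averaged -0.95. Col3a1, the collagen of vessels and reticular fibres, had no probe above 1. Its 31 probes ran from -4.29 through -0.01 to 0.98 (mean -0.23 ± 0.92), and 18 were at the floor in both channels, as were 8 of the 12 within 1000 bp of the start.

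Col24a1, a fibrillar chain of developing bone, averaged 0.40 ± 1.05 over 29 probes. Within 1000 bp of the start its mean was 0.06, and its high run of 10 probes, 1620 bp long, lay inside the gene from 761 to 2380 bp. The other fibrillar genes, Col27a1, Col5a2, Col11a1, Col5a1, Col5a3 and Col11a2, ranged from 0.17 to -0.58 with no high run of 1000 bp. Col11a2 had the fewest probes of all collagen genes, 15.

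The FACIT collagens held 2 of the 3 longest high runs. Of 10 listed, 7 were measured, with a median of 0.01 and means from -0.91 to 1.11. Col12a1 probes ran from -3.08 through 1.21 to 3.65, and 21 of 40 were above 1. Its high run of 22 probes spanned 3971 bp, from -2967 to 1003 bp, with a mean of 2.10 (chr9:79793797-79797767), the longest among the collagen genes. Inside the gene, beyond that run, a low run of 5 probes averaged -1.07. Col14a1, which binds fibrils in skin and tendon, ran from -3.07 through 1.11 to 3.25, with a mean of 0.98 ± 1.49 over 28 probes. Its high run of 16 probes spanned 3099 bp, from -1714 to 1384 bp, with a mean of 1.75 (chr15:55367662-55370760). Col14a1 lay just under 1 and passed it with normexp, loess, no centring and the series table, without dim or floor probes, by the probe median and within 1000 bp of the start.

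No other FACIT collagen had a high run of 1000 bp. Col19a1, a collagen of muscle and brain, had a mean of 0.13 ± 0.85, and 14 of its 29 probes were at the floor. Close to the start, 4 probes formed a run of 414 bp with a mean of 1.65, and its highest probe read 3.32. The chains of collagen IX, which decorate cartilage fibrils, had means of 0.01 for Col9a2, -0.32 for Col9a3 and -0.40 for Col9a1. Col16a1, a collagen of cartilage and skin, was lowest at -0.91 ± 1.42, with 14 of 35 probes below -1 and 1 above 1.

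**Figure D3:**
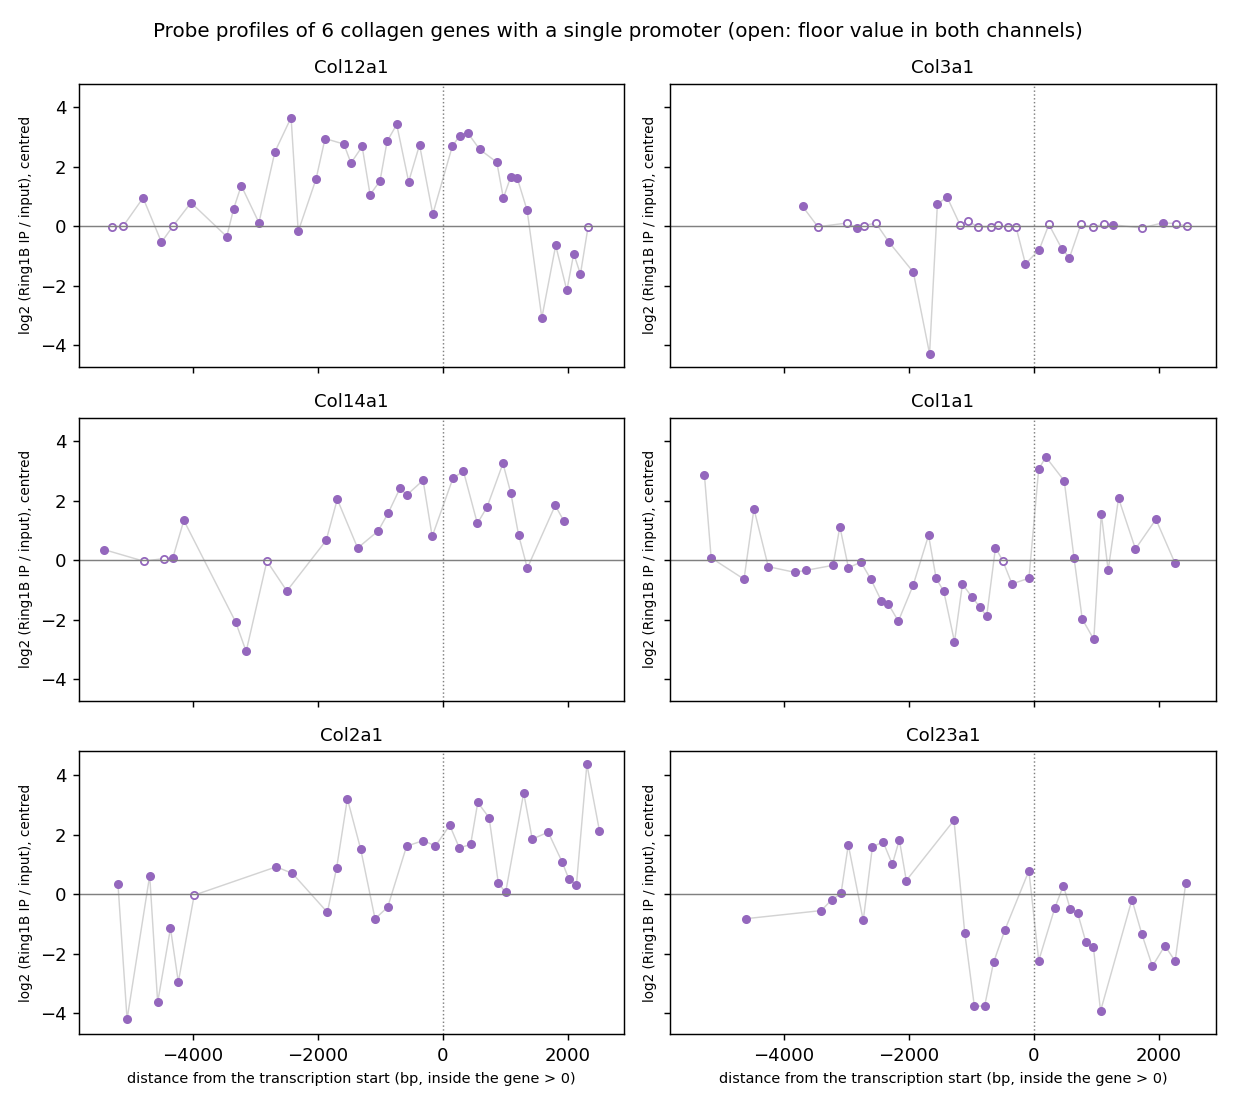
Log2 ratio of IP over input, centred, of each probe against distance in bp from the transcription start for 6 collagen genes with a single promoter, with floor probes open. Col12a1, Col14a1 and Col2a1 (left) have high runs of 3971, 3099 and 3136 bp around or after the start, whereas Col3a1 lies mostly at the floor, Col1a1 is high in a few probes inside the gene and Col23a1 is mostly low within 1000 bp of the start.

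Among the transmembrane collagens, which sit in the cell membrane and shed their ectodomains, 4 of 4 were measured and the median was -0.61. Col23a1 probes ran from -3.93 through -0.74 to 2.48, with a mean of -0.79 ± 1.57 over 42 probes, 19 of them below -1. A low run of 11 probes covered 1898 bp inside the gene, with a mean of -1.46, while 11 probes more than 2000 bp upstream averaged 0.53. Some Col23a1 probes form a separate group far inside the gene, where a low run of 5 probes, 290460 bp from the start, averaged -2.09. Col17a1, the hemidesmosome collagen of the epidermis, averaged -0.80 ± 1.95, with a probe median of -0.09 and 14 of 38 probes below -1. Col25a1, a neuronal collagen, averaged -0.42. Col13a1, a collagen of neuromuscular junctions, averaged 0.30 ± 1.87 and held both a high run of 1282 bp around the start (mean 1.37) and a low run of 1065 bp upstream (mean -2.49).

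The smaller classes had no gene past 1 in size and no high run of 1000 bp. Under the alternatives, Col8a2 held such a run with normexp, loess and the series table, and Col15a1 held one without centring. Of the beaded-filament collagen VI genes, which form microfibrils around cells, 2 of 6 were measured, Col6a1 at -0.18 and Col6a2 at -0.48. Of the network-forming collagens, Col8a2, a collagen of the cornea, averaged 0.35 and Col10a1, the collagen of hypertrophic cartilage, -0.67 ± 2.07. In Col10a1 a low run of 7 probes covered 929 bp from -587 to 341 bp, with its lowest probe at -5.34, yet the median of its 30 probes was 0.03. The multiplexins Col18a1 and Col15a1, basement membrane proteoglycans, stood at -0.07 and -0.21. Col7a1, which anchors the epidermis, stood at -0.48. The descriptions of Col10a1, Col13a1 and Col19a1 were chosen after their values were seen.

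CpG content, which the choice of members did not use, was set beside the ratios for the 28 genes with a RefSeq promoter of 300 bases, from 250 before to 50 after the start. A promoter was called CpG-rich at a GC content of at least 50% and a ratio of observed to expected CpG of at least 0.6, which held for 33.5% of 32851 RefSeq promoters and for 11 of the 28. Means within 1000 bp of the start had a median of 0.56 in the 11 CpG-rich genes (from -1.43 to 2.16) and -0.23 in the other 17 (from -1.24 to 1.57). The range of the other 17 lay within that of the 11 CpG-rich genes. Over whole tiled regions the medians were 0.10 and -0.21. Across the 28 genes, Spearman's rho between CpG ratio and the mean within 1000 bp was 0.337 and Pearson's r was 0.374, given as a description without a p, since genes of 1 slide share an array and a dye orientation. With the whole-region mean rho was 0.145. Col4a1 and Col4a2 had the ratios 0.902 and 0.818 and were high, whereas Col23a1 (0.700) and Col25a1 (0.860) were CpG-rich and low. Col1a2, at 0.470, was high without being CpG-rich. Over all genes with a RefSeq promoter, 2.45% of 5140 CpG-rich ones and 1.44% of 4708 others had a mean of at least 1. For 26 collagen genes the array start could be compared with the RefSeq promoter by matching probe sequence, and the median difference was 96.5 bp. Col12a1, Col14a1 and Col2a1, the genes with the longest runs, have no entry in the promoter table.

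**Figure D4:**
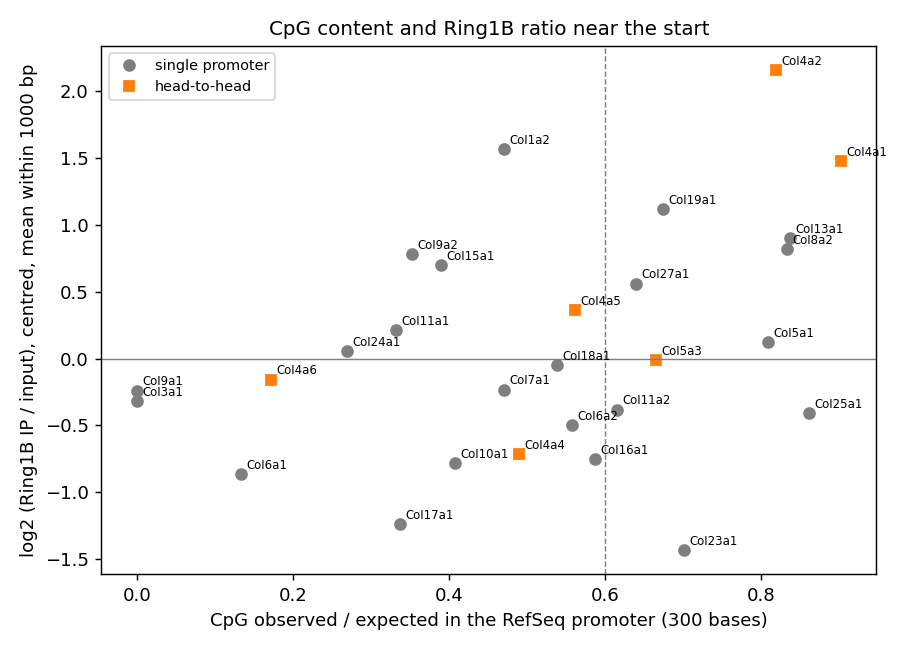
Mean log2 ratio of IP over input within 1000 bp of the start against the ratio of observed to expected CpG in the RefSeq promoter, 1 point per gene for 28 collagen genes, with head-to-head genes as orange squares and the dashed line at 0.6. Points rise weakly from left to right (Spearman's rho 0.337), with Col1a2 high to the left of the line and Col23a1 low to its right.

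Genes that make, bind or accompany collagens were described from lists fixed by function. Of 29 listed genes that modify or process collagen chains, 26 were measured, with a median of -0.01. Tll1, a protease that trims procollagen (1.12), and Leprel1, a prolyl hydroxylase (1.00), reached 1, which makes 7.69% beside 2.06% of all genes. Ppib, a prolyl isomerase, was lowest at -0.70. Of 18 other basement membrane genes, 13 were measured, with a median of -0.06 and none past 1 in size, from Lamb1-1 (0.74), a laminin chain, and Nid1 (0.50), which links laminin to collagen IV, down to Lamc3 (-0.41). Collagen receptors, 7 of 10 measured, had a median of 0.11, from Itga2 (0.40) and Ddr1 (0.26) to Itga11 (-0.95), a receptor of fibrillar collagen. Of 25 interstitial matrix genes, 18 were measured, with a median of -0.13. The microfibril genes Fbn2 (0.87) and Fbn1 (0.80) were highest, and Fmod, which regulates fibril growth, was lowest at -1.24. The medians of these lists ran from -0.13 to 0.11, around those of the collagens (-0.08) and of all genes (-0.10). High runs of at least 1000 bp were found in 4 of 26 collagen-modifying genes (15.4%) and 4 of 18 interstitial matrix genes (22.2%). They were found in 2 of 13 basement membrane genes (15.4%) and 1 of 7 receptors (14.3%). Each of these shares lay above the 7.82% of all genes, so a raised share was not particular to the collagens. Low runs of at least 1000 bp were found in 5 of 18 interstitial matrix genes (27.8%), more than held a high run, beside 9.35% of all genes. They were found in 1 of 26 collagen-modifying genes (3.85%), 1 of 13 basement membrane genes (7.69%) and 0 of 7 receptors.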

How the data were processed

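The file headers name Agilent Feature Extraction 9.1.3.1 as the software that quantified both arrays. The deposited processed signals give the intensity of each spot, background-subtracted and dye-normalised, with dim spots set to a floor, per the file headers. The deposited log ratios are log10 values, red channel over green. The deposited series table holds log2 ratios of the mean signals without background subtraction, as checked against the array files. Neither the genome build nor other processing is given in the sources used here.

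Here, control spots and 141 and 17 outlier probes were left out, which kept 237054 and 237168 probes, and the log2 ratio of red over green processed signal was centred on each slide's median probe (0.23 and 0.16 before centring). Probes were assigned by the annotation in the files, and a probe with a hyphen-joined name counted for both genes. Starts came from the distances in the file of slide 1 and, for slide 2, from the boundary between promoter and inside probes. Runs joined gaps under 1000 bp. Since each promoter lay on 1 array, no test was made, and genes were compared by size at a log2 ratio of 1. The number of arrays limits the precision.

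All 35 collagens are accounted for. The rule for those given in full took all collagen IV genes, the 6 highest and 4 lowest means among collagens with at least 20 probes, Col1a1, Col1a2, Col2a1 and Col3a1, every collagen past 1 in size, from each other list the 2 highest genes and the lowest, and partners of a named collagen in a shared promoter. Other collagens were given by class, with details chosen after their values were seen. The collagen genes, lists, rule and alternatives were chosen with earlier results of these data known. One gene that had been put in the basement membrane list in error was removed. Alternatives were normexp (offset 50), loess, no centring, the series table, without dim or floor probes, GC correction, the probe median, probes within 1000 bp of the start, at least 20 probes, without shared probes, and thresholds of 0.5 and 1.5. Added after seeing the data were dropping probes dim in either channel, collagen IV pairs only, Col4a3 without its distant probes, and the counts of runs of at least 1000 bp with their alternatives (scalings and probe filters). Gene means were tested on simulated data. R 4.3.3, limma 3.58.1, Python 3.11.15, numpy 2.4.6, pandas 2.3.3 and scipy 1.17.1 were used.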

Additional observations from a re-analysis of the deposited data

How the results depend on the processing

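With 1 array per promoter, the spread between immunoprecipitations is unknown, and the SD over probes is not a substitute for it. The median of the collagen means stayed between -0.20 and 0.08 under the alternatives tried, and leaving out centring moved the median of all genes from -0.10 to 0.10. The number of collagen genes at or above 1 was 4 with normexp, loess or the series table (beside 2.74%, 2.41% and 2.64% of all genes), 7 within 1000 bp of the start, 4 at a threshold of 0.5 and 0 at 1.5. The number at or below -1 was 0 with normexp, no centring, the series table, GC correction or the probe median (beside 0.385%, 0.80%, 0.320%, 1.43% and 1.75% of all genes), 3 without dim input probes, 2 within 1000 bp of the start, 6 at a threshold of -0.5 and 0 at -1.5. The difference between head-to-head and single promoters was -0.17 with normexp and -0.19 with the series table. The number with a low run of at least 1000 bp was 0 with normexp and with the series table (beside 3.07% and 3.08% of all genes). The cause was not tested. Col4a4, the lowest mean, took the opposite sign by the probe median (0.0070). The other 176 values of named collagen genes under these alternatives moved by less than the SD over the gene's probes, as did Col4a4. Some of them changed sign all the same. Col1a1 went from -0.08 to 0.19 with normexp, Col4a6 from 0.04 to -0.25 with normexp and Col4a5 from 0.17 to -0.06 with loess. By the probe median, Col4a3 went from -0.20 to 0.08 and Col4a1 from 0.10 to -0.01. Dim signal limits Col3a1, Col4a6, Col5a2 and Col19a1 most, since 18 of 31, 17 of 31, 15 of 31 and 14 of 29 of their probes were at the floor in both channels. No paired analysis was possible because the 2 arrays share no probe and form no replicate groups.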
